A study of Mus musculus with 4 samples.

Results

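The genes described here encode the enzymes of glycolysis, the transporters that bring glucose in and carry lactate out, the hypoxia-inducible factors (HIF), the enzymes that mark HIF for destruction, and a set of genes known to respond to low oxygen. They were chosen by name, with earlier results of these data known, so their shares set against all genes are descriptions and not independent support. Every probe set whose only gene symbol in the array annotation was a member was used. Of 40 members, 37 had such a probe set, out of 18193 genes with one on the array, and they held 83 probe sets. No value is given for Gpi1, Eno1 or Bnip3l, which had none with a single symbol in the annotation used. Bone marrow of MyD88 -/- mice had been cultured for 6 days with recombinant human M-CSF to give macrophages. MyD88 is the adaptor of most Toll-like receptors and of the interleukin-1 receptor family, and both groups carry its knockout per the labels. The Myd88 probe set still read 8.37 and 8.40 on the zymosan arrays, against 8.73 and 8.78 on the unstimulated arrays, and whether it lies in the deleted part is not known here, so it does not check the genotype. Treated cells received zymosan, a yeast cell wall particle, at 100 ug/ml for 120 minutes (2 arrays), and the others were unstimulated, at 0 minutes (2 arrays). The zymosan arrays have ZYM in their titles, while unstimulated replicate 1 has LPS and replicate 2 has PIC. Both of these unstimulated titles end in 0, and the labels describe both arrays as unstimulated at 0 minutes. No unstimulated culture of the 120-minute time and no wild-type cells were analysed here, so time in culture and zymosan cannot be told apart. Nothing in the labels says that replicates stem from separate mice or cultures, so p-values measure only how far these 4 arrays vary, and that variation may be technical.

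Glycolysis splits glucose into pyruvate, which either becomes lactate or enters the mitochondria. Macrophages that are activated by microbial products are known for raised glucose uptake and lactate release. HIF is a pair of proteins, an oxygen-sensitive alpha subunit (the products of Hif1a and Epas1) and a stable partner (Arnt). When oxygen is present, prolyl hydroxylases encoded by Egln1, Egln2 and Egln3 modify the alpha subunit, and the VHL protein then directs its breakdown, so HIF activity is set largely at the level of protein. HIF binds a short DNA element in the promoters and enhancers of its target genes, which include glycolytic genes and Egln3 itself. An array measures none of these protein steps.

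Values are log2 expression by the RMA method, and a difference is zymosan minus unstimulated on that scale, where 1 is a doubling in linear terms. A probe set was tested when it reached the 40th percentile of its array on at least 2 arrays, and a gene is represented by its tested probe set of highest mean. "Rose" and "fell" mean an adjusted p under 0.05. The zymosan arrays correlated at r = 0.995 across probe sets and the unstimulated arrays at r = 0.989, against 0.964 to 0.969 between groups. Both zymosan arrays were hybridized on the same day, per the file headers, and the unstimulated arrays on 2 other days under another project name, so day and zymosan cannot be told apart in any result. The difference between the 3′ and 5′ control probe sets, a sign of RNA or labelling quality, was 0.23 and 0.35 for Gapdh on the zymosan arrays, against -0.10 and -0.15 on the unstimulated arrays. For Actb it was 0.48 and 0.53 on the zymosan arrays, against 0.20 and 0.15 on the unstimulated arrays. Macrophage markers were present on all arrays, with Lyz2 and Cd68 above 13 in each. Of 12 tested markers of granulocytes and their precursors, 10 rose, where 8.36% of all tested genes rose and 5.64% fell. The mean log2 level of these markers was 7.89 and 7.97 on the zymosan arrays, against 6.21 and 6.12 on the unstimulated arrays. Of 9 macrophage markers 4 fell, with mean levels of 10.50 and 10.51 on the zymosan arrays, against 11.22 and 11.36 on the unstimulated arrays. Of 19 tested markers of erythroid, lymphoid, dendritic, mast and stromal cells, 0 rose and 2 fell by limma, where 1 and 3 had an unadjusted p under 0.05. The part of RNA quality and of these cell markers in the results below was not tested. In bulk RNA, a change in the share of a cell type and a change in RNA per cell cannot be told apart.

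Zymosan-treated macrophages had higher levels of a part of these genes, led by Egln3, a prolyl hydroxylase, and P4ha2, a collagen prolyl hydroxylase. Of the 37 members tested, 14 rose and 3 fell, or 37.8% and 8.11%. Over all 13222 genes tested, 8.36% rose and 5.64% fell. Eno2, counted among the 14, reached the filter's level with zymosan only, so its call is partly fixed by the filter. With such probe sets left out, 13 of 36 members rose and 2 fell, against 7.96% and 5.43% of all genes. The median difference was 0.51 over the members and 0.00 over all genes. Both zymosan arrays lay above both unstimulated arrays for 25 members and below both for 4, where these patterns held for 32.4% and 28.2% of all genes. The genes that fell were Slc2a3, a glucose transporter, Pfkm, a phosphofructokinase subunit, and Pfkfb4, a regulator of phosphofructokinase. Among the HIF pathway and hypoxia response members, 8 of 14 rose and 6 did not pass the test, with a median of 0.72. Among the enzymes and transporters 6 of 23 rose and 3 fell, with a median of 0.42.

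**Figure D1:**
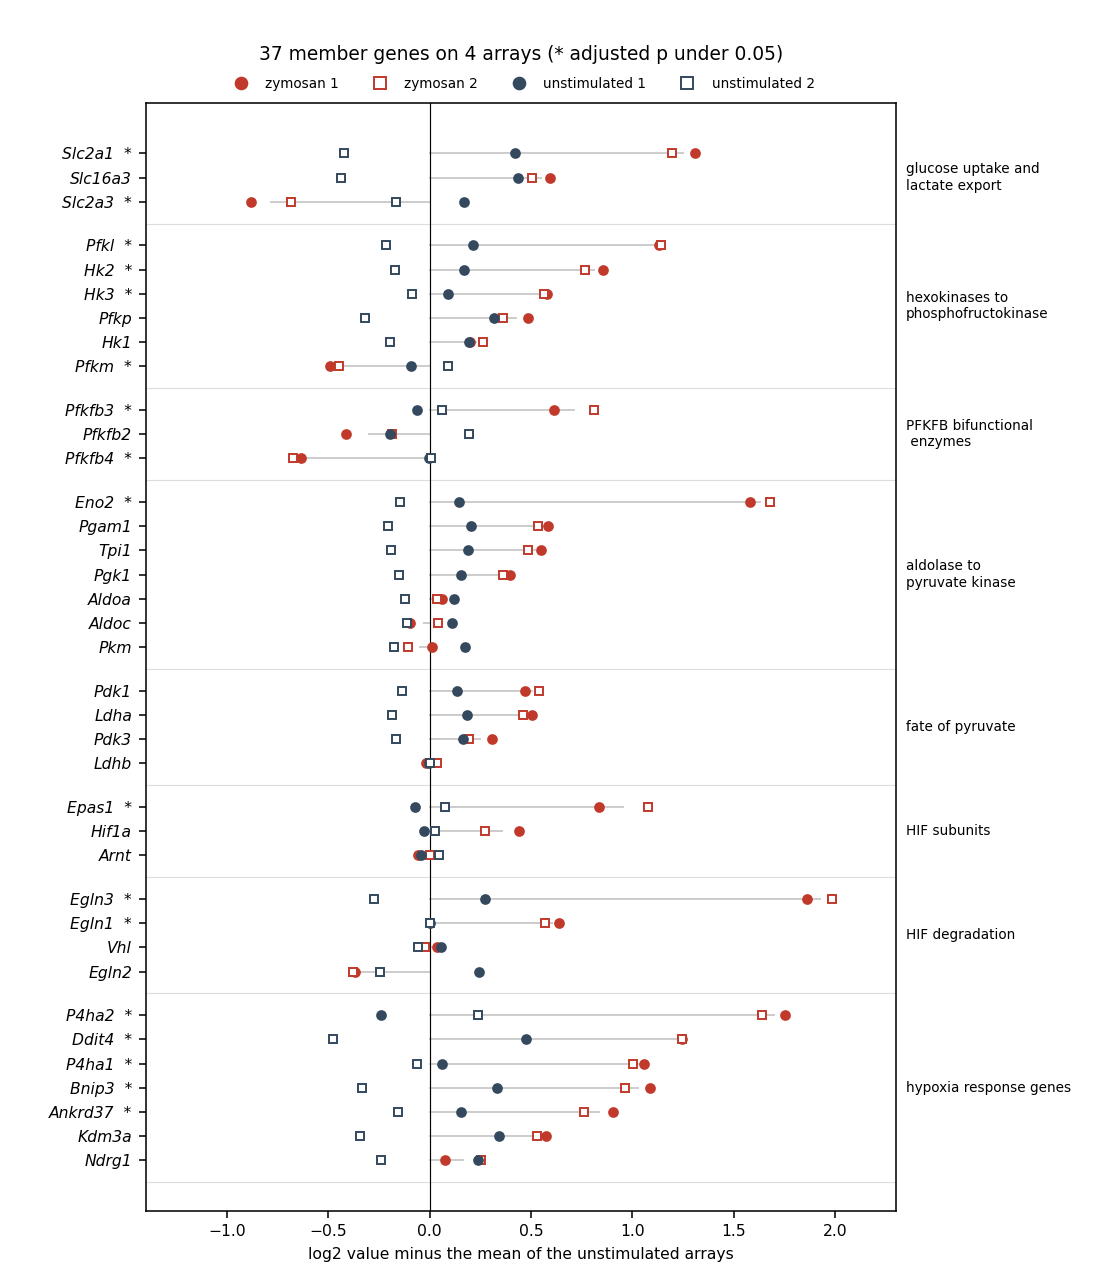
Log2 value of each of the 37 members on each array, minus the mean of the 2 unstimulated arrays, at the probe set that represents the gene. Rows are grouped by role, circles and squares are replicates 1 and 2, red is zymosan, dark blue is unstimulated, the grey line joins the group means, and an asterisk marks an adjusted p under 0.05. Egln3, P4ha2 and Eno2 lie farthest to the right, and Slc2a3 and Pfkfb4 farthest to the left.

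These counts depended on which arrays entered the fit. A fit without an array leaves 1 in its group, so the spread within groups comes from the other pair alone. Across probe sets, the SD of the difference was 0.198 within the zymosan pair (same day) and 0.292 within the unstimulated pair (different days). The part of this in the counts was not tested. Without zymosan replicate 1, 3 members rose (Eno2, Egln3 and P4ha2), where 1.21% of all genes did. Without zymosan replicate 2, only Eno2 rose among the members, against 0.787% of all genes, and no member that reached the filter's level in both groups did. When arrays of the same hybridization day were treated as correlated, at a fixed 0.54, 6 members rose, against 2.64% of all genes. They were Eno2, Egln3, P4ha2, Pfkl, Epas1 and P4ha1. Without unstimulated replicate 1, 22 members rose, against 9.61% of all genes.

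Egln3 and P4ha2 had the largest increases among the members and both belong to families of oxygen-dependent hydroxylases. Egln3 read 6.71 and 6.84 on the zymosan arrays, against 5.12 and 4.58 on the unstimulated arrays. The means were 6.77 ± 0.09 with zymosan and 4.85 ± 0.39 without (SD, n = 2 each). It rose 3.79-fold, a difference of 1.92 (SE 0.20, adjusted p = 0.0053), with a wide gap between the groups. Its value on unstimulated replicate 2 lay below that array's median of 4.95 and near the filter's level of 4.39. The fold is thus taken partly against a dim value. P4ha2, a catalytic subunit of the enzyme that hydroxylates collagen, read 7.52 and 7.41 on the zymosan arrays, against 5.53 and 6.00 on the unstimulated arrays. Its rise was 3.24-fold (SE 0.18 on the log2 scale, adjusted p = 0.00576), and unstimulated replicate 1 was the lower of its pair. P4ha1, which encodes the other main form of that subunit, read 9.06 and 9.01 on the zymosan arrays, against 8.06 and 7.94 on the unstimulated arrays. The P4ha1 values were tight within groups, and it rose 2.04-fold (SE 0.11 on the log2 scale, adjusted p = 0.00577). A further probe set of P4ha1 differed by only 0.01 (adjusted p = 0.98), and a further one of Egln3 by 0.40 (adjusted p = 0.234).

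**Figure D2:**
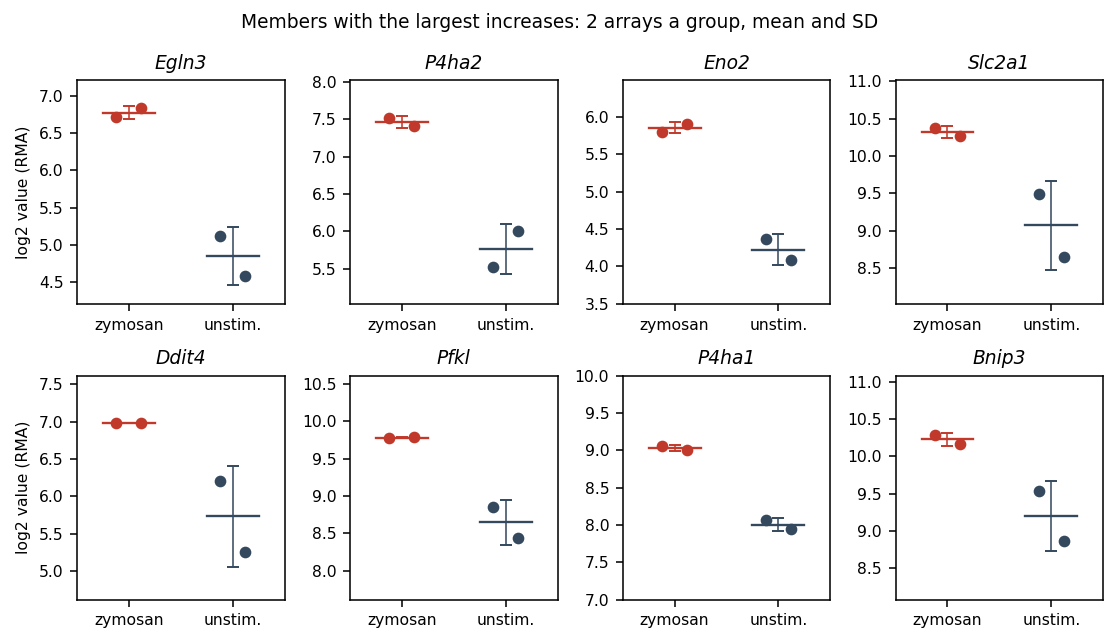
Log2 value on each array for the 8 members with the largest increases, zymosan at left in red and unstimulated at right in dark blue, with group mean and SD (n = 2 arrays) and a window of equal height in each panel. The zymosan pairs are tight in every panel, while the unstimulated pair of Slc2a1 and Ddit4 is spread over 0.85 and 0.96.

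The other hypoxia response genes that rose were Ddit4, Bnip3 and Ankrd37. In this group 5 of the 7 tested rose, against 8.36% of all genes. Ddit4, which encodes an inhibitor of the growth kinase complex of mTOR, read 6.98 and 6.98 on the zymosan arrays, against 6.21 and 5.26 on the unstimulated arrays. The groups did not overlap and it rose 2.37-fold (SE 0.30 on the log2 scale, adjusted p = 0.0466), but the unstimulated arrays lay 0.96 apart, and the zymosan mean exceeded unstimulated replicate 1 by 0.77 and unstimulated replicate 2 by 1.72. Its adjusted p was 0.0584 without a filter on low values and 0.0504 after quantile normalization. Bnip3, a mitochondrial protein that takes part in mitophagy and cell death, read 10.29 and 10.16 on the zymosan arrays, against 9.53 and 8.87 on the unstimulated arrays. It rose 2.04-fold (adjusted p = 0.0356), and again unstimulated replicate 2 was the lowest array. Ankrd37, an ankyrin repeat gene known as a HIF target, read 6.57 and 6.43 on the zymosan arrays, against 5.82 and 5.51 on the unstimulated arrays. Its increase was 1.78-fold (SE 0.14 on the log2 scale, adjusted p = 0.0185). Kdm3a, a histone demethylase that needs oxygen, differed by 0.55 (adjusted p = 0.165), with 8.95 and 8.91 on the zymosan arrays, against 8.73 and 8.04 on the unstimulated arrays, of which unstimulated replicate 1 lay near the zymosan values. Ndrg1, a stress-responsive gene, differed by 0.17 (adjusted p = 0.594) with overlapping arrays, and its 4 other probe sets ranged from -0.50 to 0.09 without passing the test.

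The promoters of the members were read for the core of the HIF-binding element, since known HIF targets are among them. A part of the members was chosen as known to respond to low oxygen, so their share is not independent of that choice. The core was searched as ACGTG or GCGTG on either strand of the 250 bases before and 50 bases after each start in the RefSeq promoter table (GRCm38.p6). Where the letters CACGTG occur, both strands match and overlap. The table held 36 of the 40 members, and 32 of these (88.9%) had the core in at least 1 promoter, against 64.4% of the tested genes on the array found in the table and 46.7% of all its genes. With ACGTG alone the shares were 66.7% of members, 28.3% of tested genes and 21.8% of all genes. Member promoters had a median G and C content of 62.5%, against 60% for tested genes, and 1.5 promoters a gene, against 1.27, and the part of these 2 measures in the shares was not tested. Of the members in the table, the core was found in 12 of 13 that rose, in both of those that fell and in 17 of 19 that did not pass the test. Shown here are the 4 members with the core and the largest differences, 5′ to 3′ on the gene's strand, with each core in capitals:
Egln3, chr12:54203825-54204124, minus strand: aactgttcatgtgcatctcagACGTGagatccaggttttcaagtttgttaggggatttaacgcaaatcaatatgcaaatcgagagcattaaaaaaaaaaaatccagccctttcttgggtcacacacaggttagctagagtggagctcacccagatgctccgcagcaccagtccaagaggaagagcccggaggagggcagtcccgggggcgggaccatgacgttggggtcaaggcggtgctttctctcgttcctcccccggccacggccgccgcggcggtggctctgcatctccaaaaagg
P4ha2, chr11:54100674-54100973, plus strand: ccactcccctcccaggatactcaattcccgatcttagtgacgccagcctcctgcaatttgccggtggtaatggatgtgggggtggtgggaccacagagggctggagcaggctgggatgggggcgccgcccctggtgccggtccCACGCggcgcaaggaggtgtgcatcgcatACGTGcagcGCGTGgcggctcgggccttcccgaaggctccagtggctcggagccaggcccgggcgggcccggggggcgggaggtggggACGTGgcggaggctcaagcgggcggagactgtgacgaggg
Slc2a1, chr4:119108495-119108794, plus strand: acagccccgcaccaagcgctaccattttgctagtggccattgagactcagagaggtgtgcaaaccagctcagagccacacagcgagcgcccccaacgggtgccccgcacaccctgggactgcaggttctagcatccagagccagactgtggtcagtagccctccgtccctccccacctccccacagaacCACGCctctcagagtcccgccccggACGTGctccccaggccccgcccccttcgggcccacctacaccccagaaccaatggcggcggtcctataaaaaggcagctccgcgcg
Ddit4, chr10:59951721-59952020, minus strand: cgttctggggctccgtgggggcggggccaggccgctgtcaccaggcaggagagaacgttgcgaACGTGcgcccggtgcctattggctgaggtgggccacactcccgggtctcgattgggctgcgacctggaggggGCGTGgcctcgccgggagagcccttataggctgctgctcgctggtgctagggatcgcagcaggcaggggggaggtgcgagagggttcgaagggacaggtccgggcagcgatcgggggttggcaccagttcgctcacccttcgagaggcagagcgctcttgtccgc
Counted from the start site by the leftmost base, the cores lie at -229 in Egln3, at -107, -78, -69 and 11 in P4ha2, at -61 and -36 in Slc2a1 and at -187 and -115 in Ddit4. A match of 5 letters is a description of the sequence and not a measured binding site.

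The transcripts of the HIF subunits gave mixed readings. Epas1, which encodes the alpha subunit of HIF-2, read 6.94 and 7.18 on the zymosan arrays, against 6.03 and 6.17 on the unstimulated arrays. It rose 1.94-fold (SE 0.13 on the log2 scale, adjusted p = 0.0108), with the unstimulated arrays close together. Its other probe set differed by 0.26 (adjusted p = 0.246). Hif1a, the alpha subunit best known from macrophages, was the only member called in opposite directions at different probe sets. The probe set of highest mean read 10.72 and 10.56 on the zymosan arrays, against 10.26 and 10.31 on the unstimulated arrays, and its difference of 0.36 missed the threshold (SE 0.11, adjusted p = 0.0937). Another read 8.32 and 8.22 on the zymosan arrays, against 7.64 and 7.70 on the unstimulated arrays and rose by 0.59 (adjusted p = 0.0209). The dimmest of the 3 tested read 6.76 and 6.24 on the zymosan arrays, against 7.51 and 7.46 on the unstimulated arrays, and fell by 0.98 (adjusted p = 0.0232). The arrays of the groups were separate at all 3, so the Hif1a transcript has no settled direction in these data. Arnt, the stable partner, read 7.63 and 7.69 on the zymosan arrays, against 7.64 and 7.73 on the unstimulated arrays, with a difference of -0.03 (adjusted p = 0.902) and overlapping arrays. Of its other tested probe sets, 1 fell by 0.71 (adjusted p = 0.038) and the remaining pair differed by 0.04 and 0.28 without passing.

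The prolyl hydroxylases did not move as a family. Egln1, the main oxygen sensor in most cells, read 8.68 and 8.62 on the zymosan arrays, against 8.05 and 8.05 on the unstimulated arrays. It rose 1.52-fold (SE 0.10 on the log2 scale, adjusted p = 0.0186), and its other probe set rose 1.61-fold (adjusted p = 0.0157), with little spread within either group. Egln2 read 8.66 and 8.65 on the zymosan arrays, against 9.27 and 8.79 on the unstimulated arrays. Its difference of -0.37 missed the threshold (SE 0.18, adjusted p = 0.214), and unstimulated replicate 2 lay near the zymosan arrays. For Egln2, the zymosan mean minus unstimulated replicate 1 was -0.62, and minus unstimulated replicate 2 it was -0.13. Vhl, which directs HIF breakdown, read 6.72 and 6.66 on the zymosan arrays, against 6.73 and 6.62 on the unstimulated arrays, with overlapping arrays and a difference of 0.01 (adjusted p = 0.975). Its other probe set fell by 0.49 (adjusted p = 0.0358), from arrays that did not overlap.

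Glucose transporter genes moved in opposite directions. Slc2a1, the widely expressed transporter known as the main one of activated macrophages, read 10.38 and 10.27 on the zymosan arrays, against 9.50 and 8.65 on the unstimulated arrays. It rose 2.38-fold (SE 0.27 on the log2 scale, adjusted p = 0.0355), and a second probe set rose 2.40-fold while the third differed by 1.13 (adjusted p = 0.0656). At all 3 the zymosan arrays were above both unstimulated arrays, and unstimulated replicate 2 was the lowest. Slc2a3, a high-affinity transporter, read 7.50 and 7.70 on the zymosan arrays, against 8.55 and 8.22 on the unstimulated arrays. It fell by 0.78 (SE 0.15, adjusted p = 0.0264) and its other tested probe set by 0.87 (adjusted p = 0.0226). The suffixes s and x of these probe sets mark probes that can match other transcripts. Slc16a3, a lactate exporter, differed by 0.55 (SE 0.28, adjusted p = 0.244). It read 7.13 and 7.04 on the zymosan arrays, against 6.97 and 6.10 on the unstimulated arrays, so that unstimulated replicate 1 was close to the zymosan arrays and unstimulated replicate 2 was well below them.

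At the entry of glycolysis, Pfkl, Hk2 and Hk3 rose and Pfkm fell. Pfkl, the liver-type phosphofructokinase subunit, read 9.78 and 9.79 on the zymosan arrays, against 8.86 and 8.43 on the unstimulated arrays. It rose 2.20-fold (SE 0.16 on the log2 scale, adjusted p = 0.0118) and a second probe set rose 1.75-fold, while a dimmer probe set differed by 0.08. Hk2, the inducible hexokinase, read 8.65 and 8.56 on the zymosan arrays, against 7.96 and 7.62 on the unstimulated arrays. Its increase of 1.75-fold (SE 0.15 on the log2 scale, adjusted p = 0.021) separated the groups clearly. Hk3, the hexokinase typical of myeloid cells, read 10.94 and 10.93 on the zymosan arrays, against 10.45 and 10.27 on the unstimulated arrays. It rose 1.49-fold (adjusted p = 0.0278), and 1.84-fold at its other probe set. The probe set that represents Hk3 carries the suffix x, a mark of probes that can match other transcripts, and the other does not. Hk1, the constitutive hexokinase, differed by 0.23 and -0.26 at its probe sets, neither past the threshold. The muscle-type subunit Pfkm read 6.49 and 6.53 on the zymosan arrays, against 6.89 and 7.07 on the unstimulated arrays, and fell by 0.47 (SE 0.12, adjusted p = 0.0486), just past the threshold, and it missed the threshold without a filter on low values (adjusted p = 0.0636), with median centring (0.0547), with a mean-variance trend (0.0509) and with probe sets that reached the filter's level in only a single group left out (0.0504). Pfkp, the platelet-type subunit, differed by 0.42 (adjusted p = 0.249), with -0.73 and -0.35 at its other probe sets, so its direction is not settled.

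The bifunctional PFKFB enzymes make and break the allosteric activator of phosphofructokinase. Pfkfb3, the form with the strongest bias toward making it, read 6.24 and 6.44 on the zymosan arrays, against 5.56 and 5.69 on the unstimulated arrays. It rose 1.64-fold (SE 0.12 on the log2 scale, adjusted p = 0.0186), whereas its other probe set differed by -0.47 (adjusted p = 0.192). With the median of both probe sets the Pfkfb3 difference was 0.12 (adjusted p = 0.538). Pfkfb4 read 7.31 and 7.26 on the zymosan arrays, against 7.93 and 7.94 on the unstimulated arrays. It fell by 0.65 (SE 0.10, adjusted p = 0.0146), with both pairs of arrays tight. Pfkfb2 read 5.65 and 5.88 on the zymosan arrays, against 5.87 and 6.25 on the unstimulated arrays, and differed by -0.30 (adjusted p = 0.287). Its other tested probe set differed by 0.02 (adjusted p = 0.951).

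In the lower part of glycolysis, Eno2 was the only member of 7 tested that passed, where 8.36% of all genes rose and 5.64% fell. Eno2, the enolase of neurons that is also a hypoxia-responsive gene, read 5.80 and 5.90 on the zymosan arrays, against 4.37 and 4.08 on the unstimulated arrays. Both unstimulated arrays lay below the level set by the filter (4.39 each) and the gene was tested only because of its zymosan arrays. The rise was at least 2.76-fold, with an adjusted p of 0.00371, and of 0.00359 when no filter was applied. With the filter on the mean of all arrays it was not tested. Tpi1, Pgk1 and Pgam1, 3 abundant enzymes of the middle steps, differed by 0.52, 0.38 and 0.56 (adjusted p = 0.0762, 0.121 and 0.0695). For each of them, and for every one of the probe sets of Tpi1 and Pgk1, the zymosan arrays lay above the unstimulated arrays, though the differences did not pass the test. Aldoa, the main aldolase, and Pkm, the pyruvate kinase of macrophages, had overlapping arrays and differed by 0.05 and -0.05, and the 4 other probe sets of Aldoa by -0.08 to 0.10. Aldoc differed by -0.03 at its brighter probe set (adjusted p = 0.915), but its dimmer probe set, at 5.13 and 5.23 on the zymosan arrays, against 6.29 and 6.18 on the unstimulated arrays, fell by 1.06 (adjusted p = 0.00577).

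The genes that decide the fate of pyruvate did not pass the test at the probe sets that represent them. Here limma called 0 of 4, where 2 had an unadjusted p under 0.05. Over all genes 8.36% rose and 5.64% fell. Ldha, the subunit of lactate dehydrogenase that dominates in glycolytic cells, read 12.49 and 12.44 on the zymosan arrays, against 12.16 and 11.80 on the unstimulated arrays. Its difference of 0.48 (SE 0.15, adjusted p = 0.0854) left the groups apart but near each other. Pdk1, a kinase that shuts pyruvate dehydrogenase, read 9.35 and 9.41 on the zymosan arrays, against 9.01 and 8.74 on the unstimulated arrays. Its difference of 0.51 (adjusted p = 0.0551) lay just short of the threshold, which it passed with 5 other processing settings (adjusted p from 0.0376 to 0.0494). Its other tested probe sets differed by 0.15 and 0.30. Pdk3, of the same family, differed by 0.25 (adjusted p = 0.298). Ldhb, the other dehydrogenase subunit, differed by 0.01. Of its 3 other probe sets, the brighter ones differed by 0.65 and 0.31 (adjusted p = 0.1 and 0.229), with the zymosan arrays above the unstimulated arrays. The dimmest read 4.92 and 4.66 on the zymosan arrays, against 3.79 and 4.25 on the unstimulated arrays, and rose at least 1.32-fold (adjusted p = 0.0454). It reached the filter's level with zymosan only, so its call is partly fixed by the filter.

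Probe sets of the same gene often disagreed, which bears on every count by gene. Of the 76 member probe sets tested, 20 rose and 8 fell, against 8.48% and 7.45% of all 27571 probe sets tested. Of 22 members with at least 2 tested probe sets, 3 had all of them called in the same direction (Slc2a3, Hk3 and Egln1), 10 had some called and the rest not, 8 had none called, and Hif1a had calls in both directions. The members whose representing probe set passed while another did not were Slc2a1, Pfkl, Pfkfb3, Epas1, Egln3 and P4ha1. At Aldoc, Ldhb, Arnt and Vhl a dimmer probe set passed and the representing probe set did not. The annotation used here does not give the exon or the transcript end that a probe set reads.

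**Figure D3:**
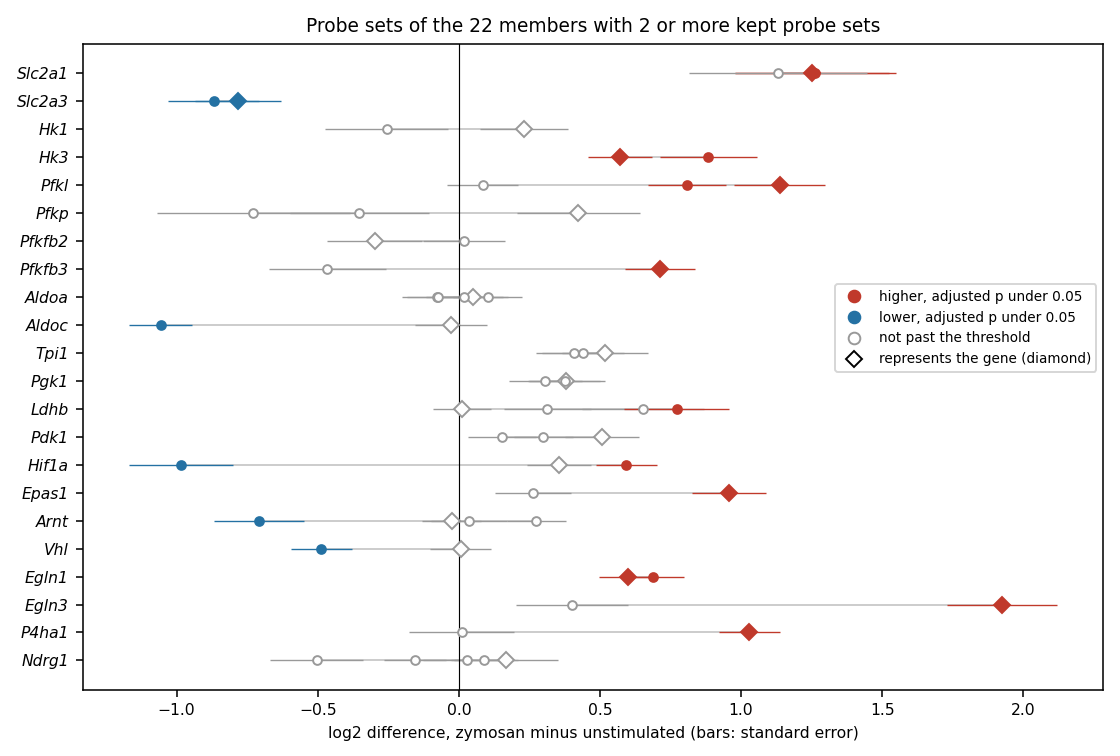
Log2 difference, zymosan minus unstimulated, with its standard error, for each tested probe set of the 22 members that had at least 2. Diamonds mark the probe set that represents the gene, and colour marks the call. Hif1a spans -0.98 to 0.59, while the probe sets of Egln1, Slc2a3 and Hk3 lie close together.

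The unstimulated arrays differed from each other for many of these genes. At the probe set of each member, unstimulated replicate 1 was higher than unstimulated replicate 2 for 27 of 37 members, with a median gap of 0.31, where over all genes it was higher for 57.5% with a median gap of 0.04. The gap was largest for Ddit4 (0.96), Slc16a3 (0.87), Slc2a1 (0.85), Kdm3a (0.69) and Bnip3 (0.66), and P4ha2 had the opposite gap of -0.48. Against unstimulated replicate 1 alone the median difference of the members was 0.30 and 27 of 37 were higher with zymosan, and against unstimulated replicate 2 alone the median was 0.65. The zymosan arrays had a median gap of 0.04. For Egln3 the zymosan mean was 1.65 above unstimulated replicate 1 and 2.20 above unstimulated replicate 2, and for Slc2a1 0.83 and 1.68. For Slc16a3 the same differences were 0.11 and 0.98. Across the 37 members, the gap between the unstimulated arrays and the difference with zymosan correlated weakly (Pearson's r = 0.24, Spearman's rho = 0.26, across genes that share the same 4 arrays).

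**Figure D4:**
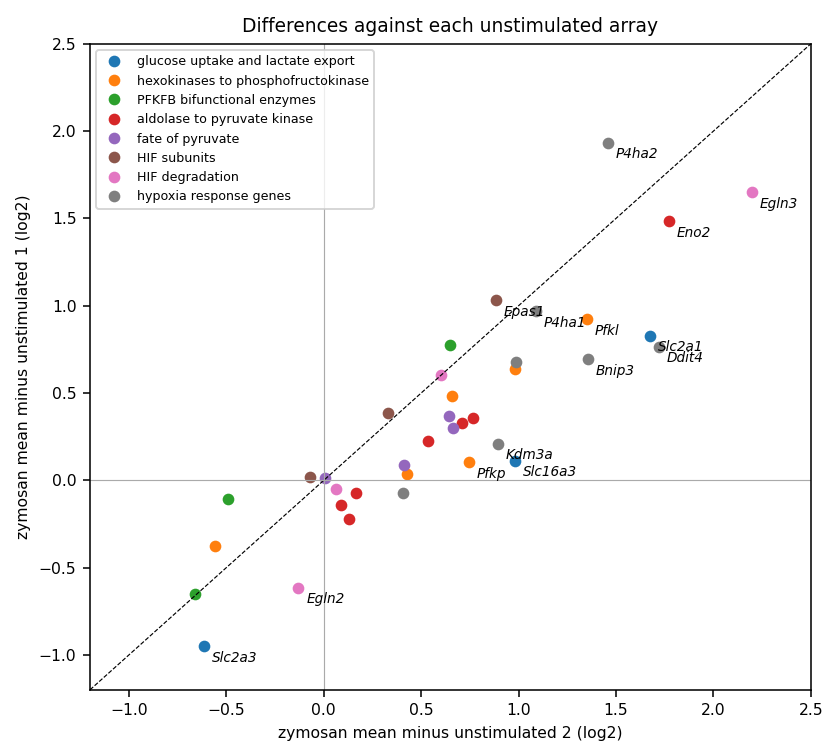
Each member's zymosan mean minus unstimulated replicate 1 (vertical) against the same minus unstimulated replicate 2 (horizontal), on the log2 scale, coloured by role, with the dashed line marking equal differences. Most members lie below the line, since unstimulated replicate 1 was the higher array for 27 of 37, and P4ha2 lies above it.

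Other genes of the same pathways were read from 5 lists, also chosen with earlier results of these data known. Other hypoxia response genes had the largest share of increases among these lists, with 10 of 30 tested higher (33.3%) and 1 lower. The lower one was Zfp395, named after its value was seen (difference -0.60). Over all genes 8.36% rose and 5.64% fell. The median of the list was 0.20, and 19 genes did not pass the test. Among these 19, Car9, Plod2, Lox, Ak4 and Mxi1 differed by 0.01, -0.01, 0.04, 0.04 and -0.01, and Ccng2 by 0.69 (adjusted p = 0.123). Bhlhe40, a transcriptional repressor of the clock and of differentiation, rose 4.24-fold, with 9.47 and 9.40 on the zymosan arrays, against 7.44 and 7.26 on the unstimulated arrays. Tfrc, the transferrin receptor, rose 3.34-fold, with 11.74 and 11.84 on the zymosan arrays, against 9.99 and 10.11 on the unstimulated arrays. Both were well separated, and Fam162a, Higd1a and Ero1a, which encode mitochondrial proteins and an oxidase of protein folding, rose 2.22-fold, 1.84-fold and 2.29-fold. Bhlhe40 and Tfrc are also known targets of other pathways, and nothing here tells these apart.

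The remaining lists had smaller shares of increases than the hypoxia list, at 20%, 20%, 16% and 5.88% in the order below. Over all genes 8.36% rose and 5.64% fell, with a median of 0.00. Of 20 other glycolysis and glycogen genes, 4 rose and 1 fell, with a median of -0.02. The branching enzyme Gbe1 rose 1.56-fold, the phosphoglucomutase Pgm1 1.66-fold, the monocarboxylate transporter Slc16a1 1.61-fold and the glycogen synthase Gys1 1.40-fold, while Bsg, the chaperone of monocarboxylate transporters, fell by 0.73. Gbe1 and Gys1 are in the hypoxia response list too and are counted in both. Of 10 pentose phosphate genes 2 rose, the isomerase Rpia (1.66-fold) and the ribokinase Rbks (1.47-fold), with a median of 0.12. Of 25 genes of pyruvate entry and the citrate cycle, 4 rose and 1 fell, with a median of 0.20. These were Ogdh (0.64), the pyruvate carrier subunit Mpc1 (0.62), Dlat (0.53), Suclg2 (0.50) and, lower, the pyruvate dehydrogenase phosphatase Pdp1 (-0.52), all as log2 differences. Of 17 other HIF pathway regulators 1 rose, the kinase gene Mtor (log2 difference 0.58), or 5.88%, which is near the 8.36% of all genes.

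**Figure D5:**
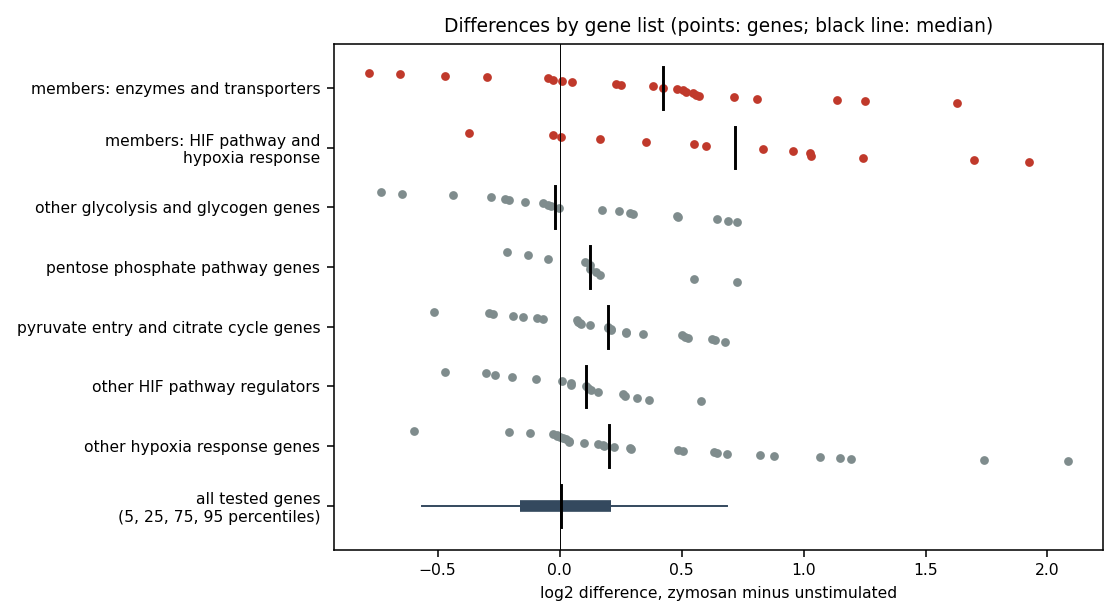
Log2 difference, zymosan minus unstimulated, of each tested gene in the members (red, in 2 groups) and in 5 lists of related genes (grey), with black lines at the medians. The bottom bar gives the 5, 25, 75 and 95 percentiles of all tested genes (-0.56, -0.16, 0.21 and 0.69), and the member medians of 0.42 and 0.72 lie to the right of the other medians.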

How the data were processed

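RNA from 2 zymosan-treated and 2 unstimulated macrophage samples was measured on Affymetrix Mouse430_2 arrays, from 4 ug of total RNA per the labels. The authors deposited log2 expression values per probe set, made by the RMA method (per the submitters' processing notes). The software's version is not given in the sources used here, nor is the set of arrays normalized jointly. RMA equalizes distributions and gives a value even for an absent transcript. Array medians were 4.92 to 4.95.

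Of 45101 probe sets, 64 controls were set aside, and 34945 had 1 symbol, 932 several and 9160 none in the platform annotation. The 27571 probe sets at or above the 40th percentile on 2 or more arrays were fitted with lmFit and eBayes in limma 3.58.1 (R 4.3.3), with a 2-sided test and Benjamini-Hochberg adjustment over all of them. All adjusted p-values come from this fit, unless a setting is named, and SE is its moderated standard error. An exact permutation test of 2 against 2 arrays cannot go below p = 0.333. The number of arrays limits the precision. For a group whose arrays were all dimmer than the filter's percentile (4.36 to 4.39), folds were taken against that percentile and are lower bounds. The fit was also run on simulated data with independent noise and no effect of day, so that run does not bear on the part of day in the calls. Members, lists and tests were chosen with earlier results of these data known. Named were all members, with array values for those past the threshold at 0.58 or more, for discordant probe sets and for HIF regulators, and the 5 smallest p per pathway list. Protein sequences were not used here.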

Additional observations from a re-analysis of the deposited data

How the results depend on the processing

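The number of arrays sets the main limit. A fit without a single array takes its spread within groups from the other pair alone. The median difference of the members, 0.51, lay between 0.30 and 0.65 on leaving out single arrays, and from 0.46 to 0.53 under the other alternatives. The gap of 0.31 between the unstimulated arrays was 0.27 with the median of probe sets and 0.31 to 0.32 with the filters and normalizations; the other settings leave these values as they are. No member's call changed direction. Counts of members higher and lower at genes, 14 and 3, ran from 1 to 22 and from 0 to 3 on leaving out single arrays, and at probe sets, 20 and 8, from 1 to 31 and from 0 to 11. In both cases limma's lowest counts came without zymosan replicate 2, where 15 genes were higher and 3 lower at an unadjusted p under 0.05. With treat at a minimum fold of 1.5, 3 genes and 3 probe sets were higher (Eno2, Egln3 and P4ha2) and limma called 0 lower, where 0 genes and 2 probe sets had an unadjusted p under 0.05; over all genes 0.87% were higher and 0.499% lower. The setting with hybridization day as a block was chosen after seeing the data. As duplicateCorrelation gave no value for 3 days and 4 arrays, the correlation within a day was fixed at 0.54. That value compares the spread of the zymosan pair with that of the unstimulated pair and assigns the extra spread to day. Whether the extra spread is due to day was not tested. In this setting 6 genes and 6 probe sets were higher and 0 genes and 1 probe set lower. At an unadjusted p under 0.05 limma had 18 genes higher and 3 lower. Leaving out probe sets that reached the filter's level in 1 group only, an alternative added after seeing the data, gave 13 and 2 genes and 18 and 7 probe sets. The filters, both normalizations, adjustment over genes, the median of probe sets, the variance trend and the robust fit changed between 0 and 6 of the member calls each.

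Among the related lists, counts higher ran from 0 to 4 for other glycolysis genes, 0 to 1 for pentose phosphate genes, 0 to 3 for citrate cycle genes, 0 to 1 for HIF regulators and 2 to 10 for other hypoxia genes on leaving out single arrays, and counts lower from 0 to 1. Under treat these counts were 0, 0, 0, 0 and 2 higher, with none lower, and under the day block 0, 0, 0, 0 and 5 higher, with none lower. Without a filter 1 pentose phosphate and 2 citrate cycle genes were higher. With the median of probe sets 1 pentose phosphate gene and 0 HIF regulators were higher and 1 HIF regulator lower, and with the variance trend 2 HIF regulators were higher. Other glycolysis genes had 2 lower with the 60th percentile filter, the filter on the mean, quantile normalization, adjustment over genes and the median of probe sets, and the filter on the mean left 0 other hypoxia genes lower. The motif share of members was 88.9% and 66.7% with ACGTG alone. The cause of these shifts was not tested, beyond the fewer arrays or the stricter hypothesis of each setting. No paired analysis was possible because the labels give no replicate number that links the groups.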
